A study of Mus musculus with 12 samples.

Results

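Public TRB chains are T cell receptor beta chains whose CDR3 amino acid string recurred between mice. Here a CDR3 string was called public when the beta chain with the most UMIs (unique molecular identifiers, tags that count molecules) carried it in at least 3 of the 6 libraries, with at least 1 control and 1 anti-CD137 library among them. Of 43101 TRB CDR3 strings, 760 (1.76%) met this rule. They were held by 6759 of the 76281 cells with a TRB chain (8.86%). The 38507 strings found in 1 library only, called one-library strings below, were the comparison. Members were chosen by a measured value, their presence in libraries, so the spread of members over libraries and treatments is a description only. A string had to be seen in at least 3 cells to qualify, and 1147 one-library strings with at least 3 cells are given beside the full comparison where this matters.

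The cells were CD8+ T cells from spleens of wild-type C57BL/6 mice. One arm was 5 mice given 10 µg of anti-CD137, clone 3H3, an antibody to the costimulatory receptor CD137 (4-1BB). The other was 10 mice given 100 µg of an Ig control antibody, clone HRPN. Both were dosed 2 times a week for 14 days, so the arms differed in antibody mass and number of mice as well as in the antibody. Each arm was sorted into effector cells (Teff, CD44hi and PD1-), precursor exhausted cells (Tpex, CD44hi, PD1+, Slamf6+ and Tim3-) and exhausted cells (Tex, CD44hi, PD1+, Slamf6- and Tim3+). Each subset of each arm was 1 library, read here as 1 sample over all mice of the arm. The labels do not say whether mice were pooled before sorting. Single mice could not be separated, no group had a replicate, and no test between treatments was possible. Expression per gene was not analysed here, so the sorted identities were not checked against markers.

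The beta chain of the T cell receptor is assembled in the thymus by joining 1 V, 1 D and 1 J segment, with bases trimmed from the segment ends and others added between them. CDR3, the loop that spans these joints and mainly contacts the peptide, runs from a conserved cysteine of V to a phenylalanine of J. Some recombined CDR3s are made far more often than others, and the same amino acid string can be encoded by different joints. Strings seen in many individuals are called public.

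The strings that recurred in all 6 libraries show what a public string looks like at the nucleotide level. The lines below are nucleotide CDR3s read 5′ to 3′, with bases outside the germline V, D and J matches in capitals. They are shown because each set encodes 1 amino acid string from different joints. The first set is a string of 14 residues in 25 cells, with 13 nucleotide CDR3s on 6 V segments, all joined to TRBJ2-7. It had 3 cells in control Teff, 5 in control Tpex, 2 in control Tex, 8 in anti-CD137 Teff, 2 in anti-CD137 Tpex and 5 in anti-CD137 Tex.
TRBV14: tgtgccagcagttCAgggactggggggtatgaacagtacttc
TRBV12-2: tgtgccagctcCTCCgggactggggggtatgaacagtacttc
TRBV16: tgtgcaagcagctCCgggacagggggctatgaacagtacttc
TRBV3: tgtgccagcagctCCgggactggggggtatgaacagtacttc
The first of these was held by 2 anti-CD137 Tpex and 5 anti-CD137 Tex cells, and the second by 5 control Tpex and 2 control Tex cells. No nucleotide CDR3 of this string occurred in both treatments.

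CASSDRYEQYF, the other string in all 6 libraries, was in 19 cells with 4 nucleotide CDR3s. It had 1 cell in control Teff, 2 in control Tpex, 3 in control Tex, 3 in anti-CD137 Teff, 9 in anti-CD137 Tpex and 1 in anti-CD137 Tex. The 3 most frequent chains had 4, 0 and 1 added bases.
TRBV13-1: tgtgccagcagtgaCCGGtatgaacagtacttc
TRBV13-1: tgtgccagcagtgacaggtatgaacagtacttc
TRBV16: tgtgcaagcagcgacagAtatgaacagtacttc
The first was in 9 anti-CD137 Tpex and 1 anti-CD137 Tex cells. The second was made wholly of germline bases and was found in 3 control Tex and 2 anti-CD137 Teff cells, so it was shared by both treatments. The third was in 2 control Tpex cells.

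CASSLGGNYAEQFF had the most nucleotide versions of any public string, 18 in 27 cells, on 7 V segments and TRBJ2-1. It averaged 0.368 added bases per chain. Its cells numbered 10 in control Teff, 4 in control Tpex, 1 in control Tex, 11 in anti-CD137 Teff, 1 in anti-CD137 Tpex and 0 in anti-CD137 Tex. These 4 versions, none with an added base, show how different V ends reached the same string.
TRBV26: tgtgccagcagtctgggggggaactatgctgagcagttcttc
TRBV12-1: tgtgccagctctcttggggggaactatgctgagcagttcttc
TRBV16: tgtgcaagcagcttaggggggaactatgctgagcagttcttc
TRBV3: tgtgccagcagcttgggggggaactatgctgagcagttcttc
The TRBV26 and TRBV12-1 versions were in 3 anti-CD137 Teff cells each. The TRBV16 version was in 1 control Teff cell. The TRBV3 version was in 1 control Tex and 1 anti-CD137 Teff cell.

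TRB chains were found in 20596 control Teff, 11258 control Tpex, 8575 control Tex, 24035 anti-CD137 Teff, 5980 anti-CD137 Tpex and 5837 anti-CD137 Tex cells. The anti-CD137 Tpex library had a TRB chain in 45.3% of its cells, against 59.0 to 87.5% in the others, and the lowest median count of UMIs per TRB chain, 6 for public and 6 for one-library cells. In each library the median UMI count of public and one-library chains lay within 2 of each other. Of 95046 barcodes, 5336 recurred in at least 2 libraries. A barcode with the same nucleotide CDR3 recurred 2 times, both between control Tpex and control Tex, in 0 public strings and 0 times across treatments.

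Most public strings were shared between the large Teff libraries. Both Teff libraries held 623 of the 760 strings (82.0%), and 21 strings were in no Teff library. By number of libraries, 583 strings were in 3, 143 in 4, 32 in 5 and 2 in all 6. The most frequent combination was control Teff, control Tpex and anti-CD137 Teff with 292 strings, followed by control Teff, anti-CD137 Teff and anti-CD137 Tpex with 123. The number of members rested on the 3 largest libraries. It was 206 without control Teff, 198 without anti-CD137 Teff and 381 without control Tpex. It was 205 when each library was thinned to the 5837 cells of the smallest.

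The share of a library's strings that recurred in the Teff library of the other treatment was between 11.5 and 14.5%. In anti-CD137 Teff were found 13.5% of control Teff strings (95% interval 13 to 14.0), 14.2% of control Tpex strings (13.3 to 15.1) and 14.0% of control Tex strings (12 to 16.2). In control Teff were found 11.5% of anti-CD137 Teff strings (11.1 to 12), 13.4% of anti-CD137 Tpex strings (12.2 to 14.7) and 14.5% of anti-CD137 Tex strings (12.6 to 16.6). The intervals overlapped among the control subsets, while those of the anti-CD137 Tpex and Tex strings lay above that of anti-CD137 Teff. All intervals of shares are exact Clopper-Pearson intervals at 95% and cover counting error only, and cells of 1 clone or strings of 1 library are not replicates.

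Public CDR3s were shorter than one-library CDR3s. They averaged 13.3 ± 1.35 amino acids (SD, n = 760 strings) against 14.1 ± 1.46 (n = 38507). The difference was -0.803 residues, with a 95% interval over strings of -0.900 to -0.706. Against one-library strings of at least 3 cells it was -0.749 (-0.878 to -0.619). Public strings ranged from 10 to 16 residues and one-library strings from 5 to 20. Strings of at most 12 residues made up 28.8% of public and 13.9% of one-library strings, and those of at least 15 residues 16.3% and 39.1%.

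**Figure D1:**
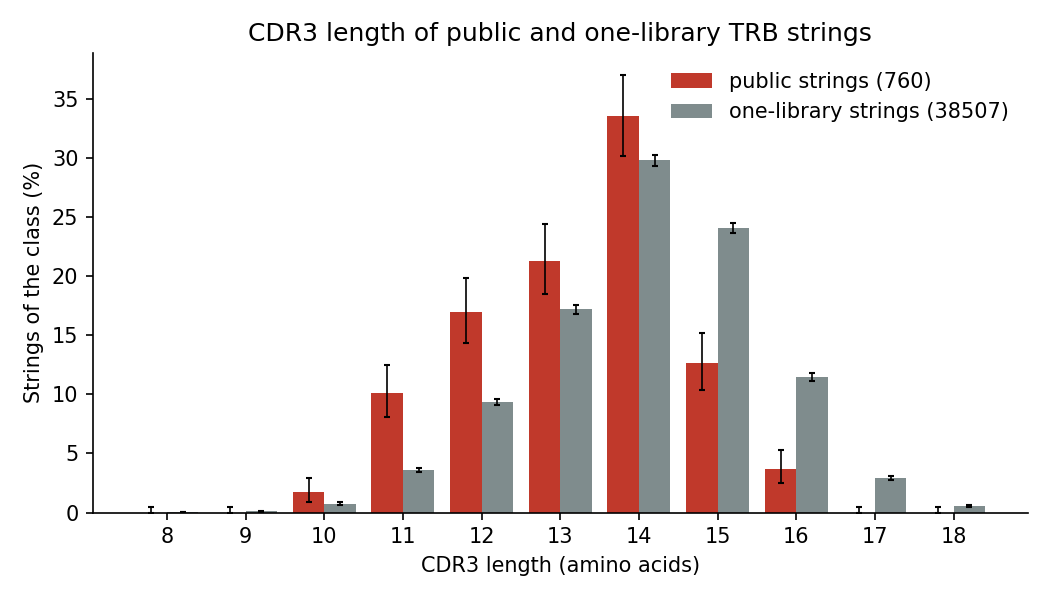
Share of public (red) and one-library (grey) TRB strings at each CDR3 length in amino acids, with exact 95% intervals over strings; lengths of 8 to 18 are drawn. Both classes were most frequent at 14 residues (33.6% and 29.8%), and public strings exceeded one-library strings at each length from 10 to 14 and lay below them from 15 on.

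The length difference was present in every library. Public strings averaged 13.2 residues in control Teff, 13.3 in control Tpex, 13.3 in control Tex, 13.2 in anti-CD137 Teff, 13.3 in anti-CD137 Tpex and 13.2 in anti-CD137 Tex. One-library strings averaged 14.1, 14.0, 14.0, 14.1, 14.2 and 14.0 in the same order. The difference therefore lay between -0.718 in control Tpex and -0.855 in anti-CD137 Tpex, with all 6 public means below all 6 one-library means. The 6 public means are not independent, because each public string is in at least 3 libraries by the rule. Control Teff held 674 and anti-CD137 Teff 688 of the 760 public strings. Among public strings, those in 3 libraries averaged 13.3 ± 1.35 residues (SD, n = 583) and those in 4 libraries 13.2 ± 1.38 (n = 143). Those in 5 libraries averaged 13.1 ± 1.19 (n = 32), so these means differed by less than the SD.

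Public chains carried fewer added bases. Added bases are those of the nucleotide CDR3 left after the longest match to the germline V, J and then D segment, so bases that match germline by chance are not counted as added. Averaged per string, public chains had 2.03 ± 1.35 added bases (SD, n = 760) and one-library chains 3.95 ± 2.39 (n = 36942 strings that could be split). The difference was -1.92 bases (95% interval -2.02 to -1.82). The V match differed by -0.181 bases (-0.288 to -0.0738), the D match by -0.328 bases (-0.562 to -0.0938) and the J match by 0.0184 bases (-0.175 to 0.212). Added bases thus made up most of the difference in length.

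Counted per nucleotide chain, 827 of 3360 public chains (24.6%, 23.2 to 26.1) had no added base, against 2176 of 38177 one-library chains (5.70%, 5.47 to 5.94). At least 5 added bases were rare in public chains and common in one-library chains. Exactly 5 were found in 5.45% and 13.2%, and exactly 8 in 0.149% and 3.41%.

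**Figure D2:**
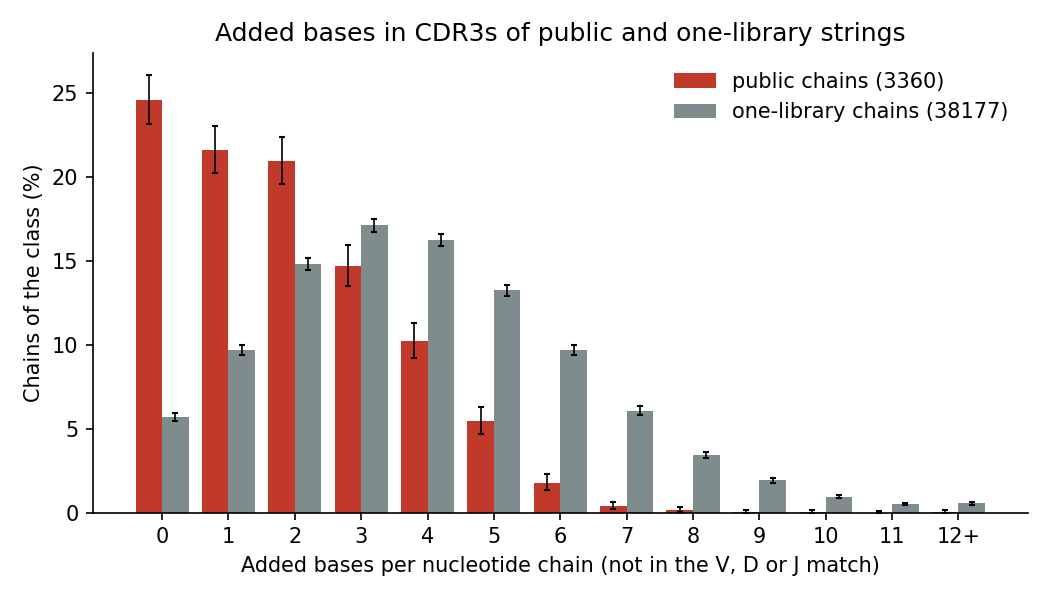
Number of added bases per nucleotide chain for 3360 public (red) and 38177 one-library (grey) chains, as the share of chains of the class with exact 95% intervals. Public chains were most frequent at 0 added bases (24.6%) and one-library chains at 3 (17.1%).

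Public strings also had fewer added bases than one-library strings of the same length. At 12 residues, public strings had 1.79 and one-library strings 2.91 added bases. At 13 residues the values were 1.64 and 3.24, at 14 residues 2.19 and 3.78, and at 15 residues 2.83 and 4.35. The intervals of all 4 differences lay below 0. At 14 residues the D match was longer in public strings, 7.34 against 6.47 bases, and so was the J match, 18.8 against 18.1, while the V match was 13.6 against 13.7 bases. The direction of the D match varied with length. It was shorter in public strings at 12 residues, 3.69 against 4.48 bases, and longer at 13 residues, 6.13 against 5.56, and at 15, 8.78 against 7.31. The V match differed by 0.677 bases at 12 residues and by -0.684 at 15.

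Added bases were fewer in public strings in each library. Public strings averaged 1.98 added bases in control Teff, 1.95 in control Tpex, 2.16 in control Tex, 1.98 in anti-CD137 Teff, 2.11 in anti-CD137 Tpex and 2.08 in anti-CD137 Tex. One-library strings averaged 3.89, 4.04, 3.94, 3.94, 4.2 and 4.28 in that order. The lowest one-library mean was above the highest public mean. As for length, the public means rest on overlapping sets of strings and are not independent.

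Nearly all public strings were encoded by more than 1 nucleotide CDR3. At least 2 nucleotide versions were found for 741 of 760 public strings (97.5%, 96.1 to 98.5), for 2.89% of one-library strings and for 18.8% of one-library strings of at least 3 cells. Public strings had a mean of 4.27 nucleotide CDR3s and 3.28 V segments, one-library strings 1.03 and 1.03. At most 12 V segments were found for 1 string, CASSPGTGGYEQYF, in 31 cells with 16 nucleotide CDR3s. The J segment varied little within a string, as 6 public strings used at least 2 J segments.

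A string in more cells can hold more nucleotide versions, so strings were also compared at the same number of cells. Among strings of exactly 3 cells, 94.9% of 118 public strings had at least 2 nucleotide CDR3s, against 46.3% of 287 strings found in several libraries of 1 treatment and 23.7% of 628 one-library strings. Among strings of 6 to 10 cells the shares were 98.4%, 21.6% and 5.80%. The 3 cells of such a public string lie in 3 libraries by the rule, whereas 3 cells of a one-library string can be 1 clone, so the rule itself sets part of this contrast.

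**Figure D3:**
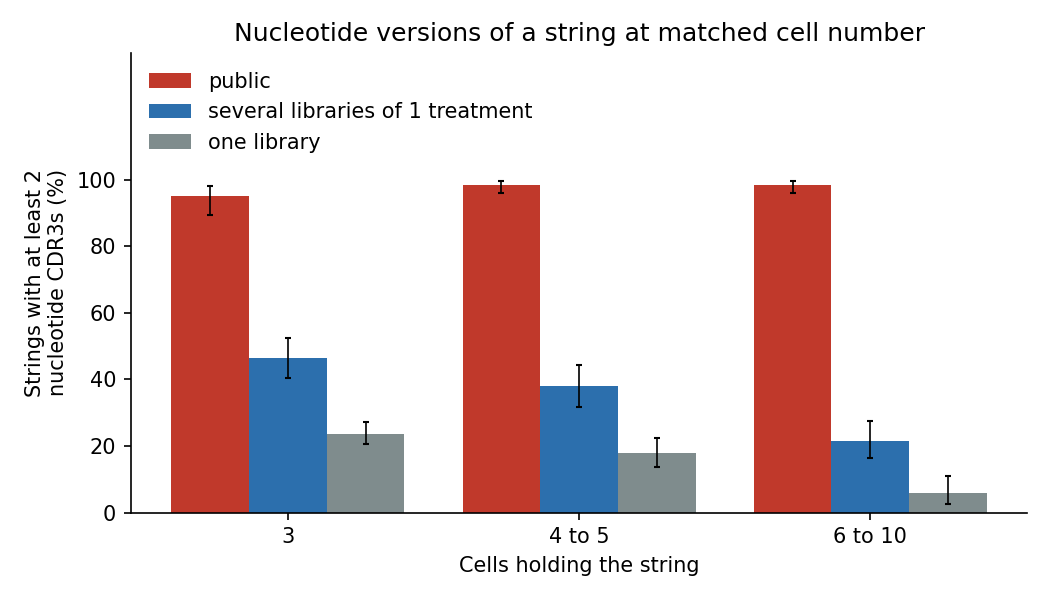
Share of strings with at least 2 nucleotide CDR3s among strings of 3, 4 to 5, and 6 to 10 cells, for public strings (red), strings in several libraries of 1 treatment (blue) and one-library strings (grey), with exact 95% intervals over strings. Public strings stayed between 94.9% and 98.4%, while one-library strings went from 23.7% to 5.80%.

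By the rule every public string was in both treatments, so its exact nucleotide sequence could only be shared as often or less often. At least 1 nucleotide CDR3 occurred in both treatments for 254 public strings (33.4%, 30.1 to 36.9), and none did for 506. Of 3248 public nucleotide CDR3s, 321 (9.88%) were in both treatments. A nucleotide CDR3 could be assigned to different V segments in different cells, as 258 public ones were. When V and J had to match as well, 213 nucleotide CDR3s were in both treatments, for 180 public strings (23.7%, 20.7 to 26.9). Chains of the same nucleotide CDR3, V and J in both treatments had 1.07 ± 1.34 added bases (SD, n = 207 chains that could be split), and 46.9% of them had none. Chains in 1 treatment had 1.97 ± 1.66 added bases (n = 3153), and 23.2% of them had none. Strings in 3 libraries with both treatments need not share any nucleotide sequence to be members.

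Tpex and Tex of the same treatment, read as sorted from the same mice, shared nucleotide CDR3s more often than libraries of separate mice. Of public strings found in both Tpex and Tex of 1 treatment, 87.7% (79.9 to 93.3) of 106 in control and 90.3% (82.9 to 95.2) of 103 in anti-CD137 shared a nucleotide CDR3 between the libraries. Across treatments the share lay between 15.9% (12.7 to 19.6) for control Tpex with anti-CD137 Teff and 27.1% (23.7 to 30.8) for the Teff libraries. Teff with Tpex of the same treatment shared a nucleotide CDR3 for 20.9% of public strings in control and 24.3% in anti-CD137, within the range of the pairs across treatments. Teff with Tex of the same treatment did so for 24.7% (16.4 to 34.8) in control and 32% (23.9 to 40.9) in anti-CD137. The latter lay above the range across treatments, with an interval that overlapped it. These values cover public strings only, which by the rule are also in the other treatment. Over all strings shared by a pair of libraries, Teff with Tpex shared a nucleotide CDR3 for 26.0% in control and 34.4% in anti-CD137. Teff with Tex did so for 39.1% in control and 45.1% in anti-CD137. Pairs across treatments ranged from 13.9 to 26.7% on that count.

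Public and one-library strings differed in their use of V and J segments. Each string counted once, split equally over its chains. The shares below are such weighted shares, not shares of strings with the segment in any chain. A segment was called where the 95% intervals of both classes were apart, among segments at 1% or more of either class. By this rule 5 of 20 TRBV segments (25%) were higher and 5 (25%) lower among public strings. Of 12 TRBJ segments 1 (8.33%) was higher and 4 (33.3%) were lower. The segments lie on chromosome 6, and positions are those of GENCODE M21 on GRCm38, counted from 1.

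The higher V segments were TRBV12-2, TRBV26, TRBV12-1, TRBV15 and TRBV3. TRBV12-2 (chr6:41118851-41119364) had a weighted share of 11.3% of public and 5.83% of one-library strings. Public strings had 3.28 V segments on average, and 283 of the 760 had TRBV12-2 in at least 1 chain. TRBV12-1 (chr6:41113550-41114067) had weighted shares of 10.8% and 6.06%. TRBV12-2 and TRBV12-1 have the same germline CDR3 bases, so their calls rest on sequence outside CDR3 and may be exchanged between such near-identical copies. TRBV26 (chr6:41227505-41227993) had weighted shares of 3.53% and 1.97%, TRBV15 (chr6:41141188-41141658) of 5.68% and 3.25%, and TRBV3 (chr6:41048290-41048828) of 9.71% and 6.77%.

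The lower V segments were TRBV31, TRBV20, TRBV1, TRBV2 and the combined name TRBV12-2+TRBV13-2, whose contigs matched the Trbv13-2 transcript. TRBV31 (chr6:41557691-41558452), which lies downstream of the J segments and on the opposite strand, was used by 1 public string (0.132%) and by 3.05% of one-library strings. TRBV20 (chr6:41188273-41188977) had weighted shares of 0.395% and 2.71%, TRBV1 (chr6:40891229-40891885) of 1.58% and 6.93%, and TRBV2 (chr6:41047340-41047995) of 1.20% and 2.77%. In at least 1 chain, 31 public strings had TRBV2. The combined name (chr6:41121396-41121832 for Trbv13-2) had weighted shares of 5.70% and 9.39%.

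The germline V ends below, from the cysteine codon on, are shown because the rule compares amino acid strings and ignores V, so V segments with the same CDR3 start can contribute to the same string. The first 2 belong to segments that were higher and the last 4 to segments that were lower, of which TRBV2 encodes the start CASS as the higher ones do.
TRBV12-2: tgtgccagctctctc
TRBV15: tgtgccagcagtttagc
TRBV2: tgtgccagcagccaaga
TRBV1: tgcacctgcagtgcaga
TRBV20: tgtggtgctaggga
TRBV31: tgtgcctggagtct
The start CASS was found in 88.2% of public strings (85.6 to 90.4) and 68.2% of one-library strings (67.7 to 68.6). Among strings with this start alone, 3 V segments were still higher (TRBV12-1, TRBV12-2 and TRBV15) and 3 lower (TRBV2, TRBV13-1 and TRBV19). TRBV26 and TRBV3 were not called there.

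Among J segments, TRBJ2-7 (chr6:41543810-41543856) was used by 28.2% of public strings (25.0 to 31.5) and 19.4% of one-library strings (19 to 19.8). The lower ones were TRBJ1-5 (chr6:41535084-41535133; 0.526% and 2.89%), TRBJ1-6 (chr6:41535554-41535606; 1.05% and 3.23%), TRBJ1-4 (chr6:41534811-41534861; 2.89% and 6.43%) and TRBJ2-2 (chr6:41542957-41543007; 2.89% and 5.57%). The same 5 J segments were called among strings starting CASS. TRBJ2-7 contributes the fewest germline bases to CDR3 of the 12 segments, 19, and TRBJ1-6 the most, 25. Their ends are printed to show this difference.
TRBJ2-7: ctcctatgaacagtacttc
TRBJ1-6: ttcctataattcgcccctctacttt
The J2 cluster as a whole had a weighted share of 74.7% of public (71.4 to 77.7) and 67.7% of one-library strings (67.2 to 68.2).

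**Figure D4:**
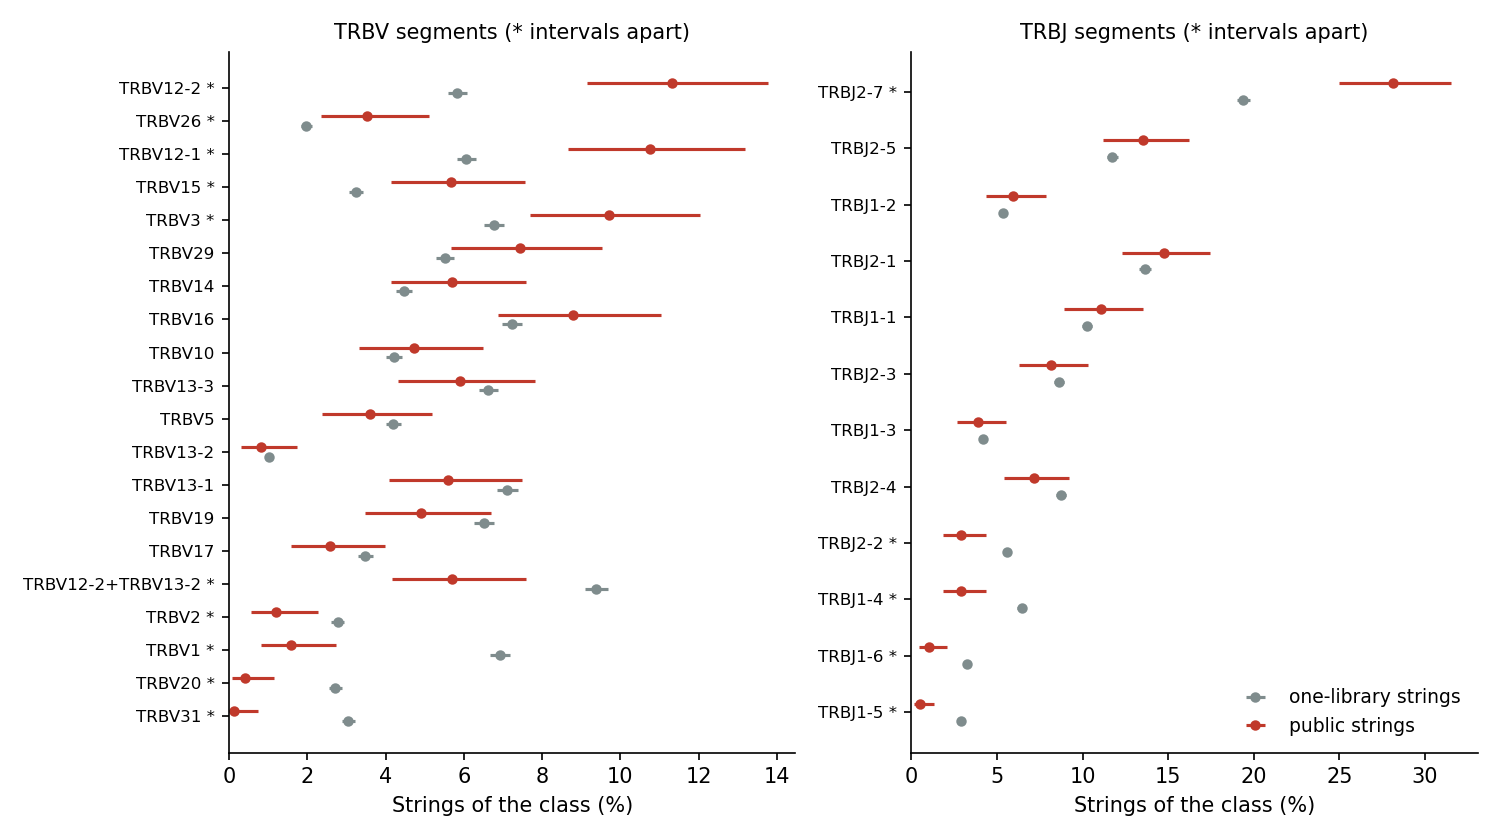
Weighted share of each TRBV (left) or TRBJ (right) segment among public (red) and one-library (grey) strings, each string split equally over its chains. Lines are 95% intervals, segments are ordered by the ratio of the shares, and an asterisk marks segments with intervals apart. TRBV12-2 (11.3% against 5.83%) and TRBJ2-7 (28.2% against 19.4%) head the panels, and TRBV31 (0.132% against 3.05%) and TRBJ1-5 (0.526% against 2.89%) end them.

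The amino acids of the loop differed in a few respects. Between residue 5 and the sixth from the end, glycine, which the D segments encode in each forward reading frame, made up 28.9% of residues in public and 24.0% in one-library strings. Glycine pairs (GG) were in 27.9% of public (24.7 to 31.2) and 26.1% of one-library strings (25.7 to 26.6), with overlapping intervals. The motif DWG was in 11.6% of public (9.39 to 14.1) and 5.55% of one-library strings (5.32 to 5.78). The end YEQYF, encoded by TRBJ2-7, was in 20.7% and 11.8%. Hydrophobic residues (A, F, I, L, M, V, W or Y) at both positions 6 and 7, counted from the first cysteine, were in 1.84% of public (1.01 to 3.07) and 3.86% of one-library strings (3.67 to 4.06). Public strings were shorter, so these positions lie nearer to the J end in them on average. Strings were not matched for length here.

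The share of public strings in each library is also a description. They made up 7.02% of TRB cells in control Teff, 9.70% in control Tpex, 12.2% in control Tex, 6.80% in anti-CD137 Teff, 13% in anti-CD137 Tpex and 13% in anti-CD137 Tex. With each nucleotide CDR3 counted once per library the shares were 6.54, 10.8, 13.8, 6.13, 11.4 and 13.8% in that order. Both Teff values lay below all 4 PD1+ values on either count. By the rule, a string of a Teff library must also be in a PD1+ library, whereas a string of a PD1+ library can qualify through both large Teff libraries. The part of library size in these shares was not tested. At an equal target, as above, the intervals of the control subsets overlapped, and those of anti-CD137 Tpex (13.4%) and Tex (14.5%) lay above that of anti-CD137 Teff (11.5%).

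Cells of public strings were more often in repeated chains, those with at least 2 cells of the same library sharing the nucleotide CDR3. Of control Teff cells, 23% of public and 9.27% of one-library cells were in repeated chains. The values were 58.6% and 35.4% for control Tpex, 92.8% and 76.9% for control Tex, 25.1% and 6.26% for anti-CD137 Teff, 75% and 63.9% for anti-CD137 Tpex, and 87.2% and 73.0% for anti-CD137 Tex. The public value was higher in all 6 libraries, and the interval of each difference lay above 0. A string with more cells is more likely to be found in several libraries, so a higher clone size is also favoured by the rule. Against one-library strings of at least 3 cells the mean difference over libraries was -30.5 percentage points in place of 16.2, but such strings must hold at least 3 cells in 1 library.

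**Figure D5:**
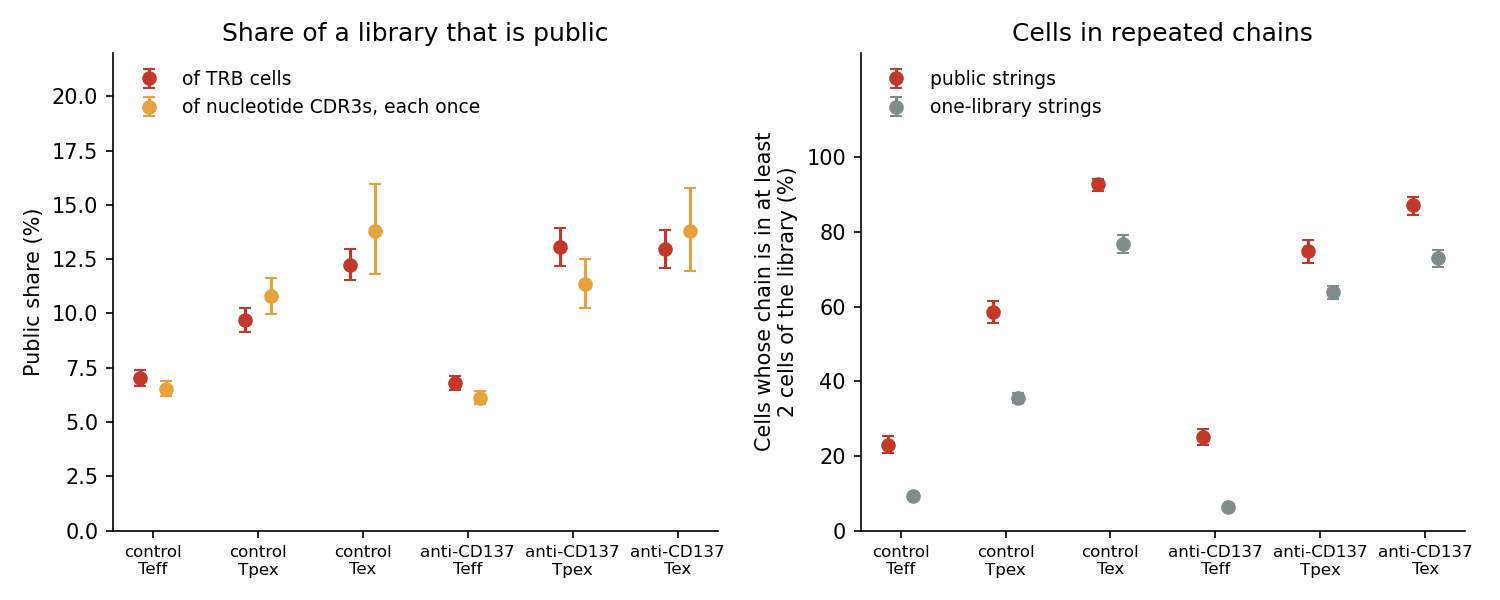
Left, public share of each library's TRB cells (red) and of its nucleotide CDR3s counted once (orange); right, share of cells in repeated chains for public (red) and one-library (grey) strings. Bars are exact 95% intervals for counting error; the PD1+ libraries lie between 9.70% and 13.8% on the left, above both Teff libraries, and the red points lie above the grey ones in all 6 libraries on the right.

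A few large clones held much of the public cells of the Tex libraries. The largest public chain, of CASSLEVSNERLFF, took 26.6% of public cells in control Tex, and the 10 largest together 64.8%. In anti-CD137 Tex the largest, of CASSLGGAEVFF, took 17.7% and the 10 largest 49.1%. In Teff the 10 largest took 2.97% in control and 3.85% in anti-CD137. Each of the 5 strings with most cells held 1 large clone.

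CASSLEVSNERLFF, with 292 cells the string with most cells, had 1 cell in control Teff, 6 in control Tpex, 279 in control Tex, 0 in anti-CD137 Teff, 1 in anti-CD137 Tpex and 5 in anti-CD137 Tex. Its 3 joints are shown because they separate the clone from the other cells of the string.
TRBV12-2: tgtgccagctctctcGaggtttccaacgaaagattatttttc
TRBV12-2: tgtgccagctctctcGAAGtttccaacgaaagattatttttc
TRBV3: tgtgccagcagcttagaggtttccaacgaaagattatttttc
The first was in all 6 control Tpex and 279 control Tex cells, and in 1 anti-CD137 Tpex and 1 anti-CD137 Tex cell. The second was in 4 anti-CD137 Tex cells and the third in the control Teff cell. The anti-CD137 Tpex cell of the first chain rested on 1 TRB UMI and had another alpha chain, and the anti-CD137 Tex cell on 49 UMIs, against a median of 24 in control Tex.

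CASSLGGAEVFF had 134 cells in anti-CD137 Tex, 6 in anti-CD137 Tpex and 1, of another joint, in control Tpex. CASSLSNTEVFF had 92 cells in control Tex, 6 in control Tpex and 1 each in control Teff, anti-CD137 Teff and anti-CD137 Tex, the last 3 all of other joints. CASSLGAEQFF had 69 cells in anti-CD137 Tex, 2 in anti-CD137 Tpex, 14 in anti-CD137 Teff and 5 in control Teff, with 10 nucleotide CDR3s. A string of 16 residues with 5 added bases, in 3 control Tpex, 97 control Tex and 1 anti-CD137 Teff cell, had a single joint.
TRBV3 and TRBJ2-5: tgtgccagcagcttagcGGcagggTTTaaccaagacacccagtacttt
The anti-CD137 Teff cell of this joint had 21 TRB UMIs and an alpha chain other than those of the control cells. Of the 2 other strings with a nucleotide CDR3 in both treatments and most cells, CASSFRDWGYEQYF had 36 cells in anti-CD137 Tex, 4 in anti-CD137 Tpex, 2 in anti-CD137 Teff and 1 in control Teff. Its shared nucleotide CDR3 was assigned to TRBV10 in the control Teff cell and to TRBV3 in 1 anti-CD137 Teff cell. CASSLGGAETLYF had 36 cells, with a clone of 23 control Tpex and 9 control Tex cells and no added base in any of its 4 joints.

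Other strings in 5 libraries held many nucleotide CDR3s of few cells each. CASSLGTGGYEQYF had 17 nucleotide CDR3s in 21 cells, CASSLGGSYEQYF 14 in 25, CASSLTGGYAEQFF 12 in 15, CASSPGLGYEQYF 11 in 19 and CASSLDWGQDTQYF 11 in 16. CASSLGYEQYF had 15 in 33 cells, with 13 of the cells in control Tex. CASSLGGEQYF, in 4 libraries, had 17 in 34 cells, 15 of them in control Teff and 13 in anti-CD137 Teff. Teff cells made up most of the cells of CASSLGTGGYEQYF (14 of 21) and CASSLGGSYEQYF (17 of 25).

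At the threshold, the strings of exactly 3 libraries with most cells included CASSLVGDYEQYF (30 control Tpex, 8 control Tex and 1 anti-CD137 Teff cells), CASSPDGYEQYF (3 control Tpex, 33 control Tex and 2 anti-CD137 Teff) and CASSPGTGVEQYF (3 control Teff, 31 control Tex and 2 anti-CD137 Teff). Just outside it, in 2 libraries of both treatments, were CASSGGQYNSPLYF (72 control Tex and 1 anti-CD137 Teff), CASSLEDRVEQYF (1 control Teff and 43 anti-CD137 Tpex), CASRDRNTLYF (1 control Teff and 24 anti-CD137 Tex), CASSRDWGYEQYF (5 control Teff and 9 anti-CD137 Teff) and a string of 15 residues (6 control Teff and 9 anti-CD137 Teff). In all, 2322 strings were in both treatments but in 2 libraries.

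The subsets of public and one-library cells are given as a description, since the rule itself lowers the Teff share of public cells. With 2 Teff libraries and a minimum of 3, each public string had to be in at least 1 PD1+ library, which a one-library string need not be. In control, 40.3% (38.7 to 41.9) of public cells were Teff, 30.4% Tpex and 29.3% Tex, against 71.9%, 22.6% and 5.41% of one-library cells. In anti-CD137, 51.6% (49.8 to 53.3) were Teff, 24.6% Tpex and 23.8% Tex, against 79.8%, 14.0% and 6.15%. With each nucleotide CDR3 counted once per library, the Teff shares were 62.3% and 78.0% in control and 72.5% and 87.6% in anti-CD137, so the gap fell from -31.6 to -15.7 points in control and from -28.3 to -15.2 in anti-CD137. In anti-CD137 it was -10.7 points without the anti-CD137 Tpex library. With a minimum of 2 libraries, which both Teff libraries can meet alone, the gaps were -12.2 points in control and -10.2 in anti-CD137.

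Within the Teff libraries, public cells lay less often in the authors' deposited cluster 0 and more often in cluster 2. In control, 42.7% of public and 48.4% of one-library Teff cells were in cluster 0, and 46.8% and 42.1% in cluster 2. In anti-CD137, 35.0% and 44.3% were in cluster 0, and 50.9% and 45.1% in cluster 2. With each nucleotide CDR3 counted once per cluster the order was the same, 43.0% and 47.8% in cluster 0 of control and 37.0% and 45.0% in cluster 0 of anti-CD137. The clusters carry numbers only in the deposited table and were not named here.

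The share of Teff cells outside clusters 0 and 2 was 10.5% for public and 9.50% for one-library strings in control, a difference of 1.01 points (-0.595 to 2.76). In anti-CD137 it was 14.1% and 10.6%, a difference of 3.43 points (1.72 to 5.27). Among Teff cells whose chain was in 1 cell, the values were 9.88% and 8.76% in control (difference 1.13, -0.628 to 3.09). In anti-CD137 they were 9.07% and 8.06% (1.01, -0.590 to 2.81), so both intervals included 0. Among Teff cells in repeated chains the order was the opposite, with 12.6% and 16.8% in control (difference -4.20, -8.13 to 0.265). In anti-CD137 these were 29.0% and 49.3% (-20.3, -25.5 to -14.8). The anti-CD137 excess over all Teff cells was thus larger than the difference in either group of chains. Public Teff cells whose nucleotide CDR3 was also in a PD1+ library of the same treatment were outside in 26.1% of 142 cells in control and 56.9% of 130 in anti-CD137, against 8.82% and 10.4% of the remaining public Teff cells. In the PD1+ libraries, public and one-library cells differed by at most 3.66 points in any cluster that held over 5% of them. With each nucleotide CDR3 counted once per cluster, control Tex differed more. Cluster 3 then had 69.1% of public and 79.0% of one-library counts, and cluster 4 had 18.6% and 11.8%. A chain in several clusters counts in each of them, so these are not shares of chains. The largest chain alone held 26.6% of public control Tex cells.

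Alpha chains were compared between cells of the same public TRB string. Of the 699 strings with at least 3 paired cells, 389 (55.7%) had a different TRA nucleotide CDR3 in every paired cell. The rule spreads the cells of a public string over at least 3 libraries. No such share was computed for other strings, so a difference from them was not tested. Invariant types were rare. TRAV11 or TRAV11D with TRAJ18, the alpha chain of iNKT cells, was in 1 of 5688 paired public cells and 19 of 38440 one-library cells. TRAV1 with TRAJ33, that of MAIT cells, was in 1 and 8 cells.

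The same alpha string accompanied the same public TRB string in both treatments for 14 of 701 strings (2%, 1.10 to 3.33). The share among other strings of both treatments was not computed. Pairs were matched on their CDR3 strings only, without regard to V segments. In 3 of the 14 pairs of strings, the same pair of nucleotide CDR3s was in both treatments. Among the cells of each of the other 11 pairs, no TRB nucleotide CDR3 was in both treatments, and in 7 of these no TRA nucleotide CDR3 was either. In cells with other alpha chains, a TRB nucleotide CDR3 of such a pair could still be in the other treatment. Both CDR3 strings of these 7 pairs were thus encoded by different nucleotide CDR3s in the control and anti-CD137 cells of the pair. Among the 7, an alpha string was assigned to TRAV5-4 in control and TRAV14N-3 in anti-CD137. Another was assigned to TRAV14N-1 in control and TRAV7N-6 in anti-CD137. A pair of strings found in both treatments was therefore not always the same receptor. For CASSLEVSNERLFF with the alpha string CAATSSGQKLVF (TRAV9N-3 and TRAJ16), the alpha nucleotide versions were the following, with the differing base in capitals.
Alpha chain with the first joint: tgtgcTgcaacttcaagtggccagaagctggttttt
Alpha chain with the second joint: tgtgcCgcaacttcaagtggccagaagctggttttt
The first was in 4 control Tpex, 236 control Tex and 1 anti-CD137 Tex cells and the second in 2 anti-CD137 Tex cells. The same receptor protein was thus encoded in 2 ways, 1 of them found only among the anti-CD137 cells of these libraries.

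A pair of receptors of single cells shows different joints in both chains. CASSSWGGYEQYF with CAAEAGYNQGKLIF was in 1 control Teff and 1 anti-CD137 Teff cell, and the TRB and TRA lines are given for control and then for anti-CD137, with the TRA bases that differ in capitals.
Control beta: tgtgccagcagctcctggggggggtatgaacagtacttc
Anti-CD137 beta: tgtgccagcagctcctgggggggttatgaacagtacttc
Control alpha: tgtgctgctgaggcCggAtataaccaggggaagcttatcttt
Anti-CD137 alpha: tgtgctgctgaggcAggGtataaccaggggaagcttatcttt
The alpha chains were assigned to TRAV4N-3 in the control cell and TRAV4-3 in the anti-CD137 cell, which are near-identical copies. This example was chosen after its sequences were seen. The other receptor with the same TRB and TRA nucleotide pair in both treatments and over 10 cells was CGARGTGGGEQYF with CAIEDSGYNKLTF, in 1 control Tex and 10 anti-CD137 Tex cells.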

How the data were processed

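TCR and gene expression libraries of 6 sorted populations were used. Cell Ranger 3.0.2 and Seurat 4.0.0, with genome build mm10, are listed in the submitters' processing notes. The deposited contig table gives a count of UMIs and of reads per contig, 192524 contigs in all, and the deposited cell table a UMI count and a cluster number per cell, per the file headers. No source used here states how doublets were handled, no caller was run, and 8571 cells had 2 TRB chains. Columns of other samples numbered 0. Each contig was assigned to its cell through library name plus barcode, and the TRB with most UMIs was kept (685 ties were broken by reads). CDR3s were matched to GENCODE M21 transcripts of GRCm38, the assembly mm10, with D matches of at least 3 bases. TRBV10 found no match, so 2276 of 51514 chains were not split. Scripts ran in Python 3.11.15 with scipy 1.17.1 and were tested on simulated chains. With 1 library per group no p-value was computed.

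Members, lists and named strings were chosen with earlier results of these data known. Named were the 10 strings in most libraries, the 5 with most nucleotide CDR3s, most cells and most cells with a nucleotide CDR3 in both treatments, the 5 with most cells on each side of the threshold, and called segments. Segment shares were first computed with 1 segment per string. They were changed to equal weights over chains after seeing the data, because ties followed the order of names. The restrictions to CASS starts, to receptors in both treatments and to shared chains of matching V and J were also made after seeing the data.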

Additional observations from a re-analysis of the deposited data

How the results depend on the processing

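No paired analysis was possible because each group was 1 library and the labels give no replicate numbers. A public count of 760 became 3082 with at least 2 libraries, 177 with at least 4, 231 when V and J had to match, 205 after thinning, and 206, 381 and 198 without control Teff, control Tpex or anti-CD137 Teff. The length difference (-0.803) and the difference in added bases (-1.92) kept their sign under every alternative run.

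With at least 2 libraries, the length difference was -0.635, added bases -1.72, the difference in strings with several nucleotide CDR3s 89.9 points (main 94.6), sharing across treatments 21.1%, the Teff gap -12.2 points in control and -10.2 in anti-CD137, the mean difference in repeated chains 11.7 points (main 16.2) and anti-CD137 Teff cells outside clusters 0 and 2 0.500 points (-0.499 to 1.54). With at least 4 libraries, these were -0.903, -2.13, 96.0, 44.6%, -44.1, -38.1, 22.1 and 6.72, with 6 V and 3 J segments called. With V and J matched, several nucleotide CDR3s gave 86.5, sharing 42.9%, the Teff gaps -47.8 and -43.7, repeated chains 22.1, cells outside 4.96 in control and 8.21 in anti-CD137, and 4 V and 3 J segments were called.

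Against one-library strings of at least 3 cells, several nucleotide CDR3s gave 78.7, added bases -1.72 and repeated chains -30.5, reversed. Of that class's cells, 68.8 to 99.9% were in repeated chains. Without strings that had a nucleotide CDR3 in both treatments, length gave -0.700. Added bases were -1.82 after thinning and -2.25 with no D sought. Without control Teff, length gave -0.688, several nucleotide CDR3s 90.9 and sharing 26.2%. Without control Tpex, several nucleotide CDR3s gave 93.0. Without anti-CD137 Teff, these gave 92.1, added bases -1.72 and sharing 23.2%. Without anti-CD137 Tpex, the Teff gaps were -35.4 and -10.7 and repeated chains 14.0. With each nucleotide CDR3 once, the Teff gaps were -15.7 and -15.2. Without the 10 largest public chains they were -23.7 and -23.4, and repeated chains 13.4. With exactly 1 TRB per cell the control gap was -34.5. With all TCR barcodes it was -36.3 and repeated chains 18.4. With each chain once, 17 V and 8 J segments were called, with 1 segment per string 12 and 5, and among strings starting CASS 6 and 5 (main 10 and 5).

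Depth limits the list: a string unseen in a library of 5837 TRB cells may still have been present, and members from 1 cell rest on as little as 1 UMI. With chains of at least 5 UMIs 622 strings were public. Clones, mice and doublets could not be separated.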

Other observations

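Chains outside the comparisons held public strings too. Among second TRB chains of cells, those not used above, 4.44% were public strings in control Teff and 4.97% in anti-CD137 Teff, 5.40% in control Tpex and 7.91% in anti-CD137 Tpex, and 20.3% in control Tex and 16.8% in anti-CD137 Tex. Among TCR barcodes not in the cell table, 4.76% and 4.81% were public in Teff, 9.09% and 10.7% for both Tpex libraries, then 9.06% and 12.1% for both Tex libraries. The intervals of the treatments overlapped in each subset. The anti-CD137 Tpex library had 11950 such barcodes and the other libraries 276 to 2960.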
